A study of Homo sapiens with 4 samples.

Results

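Heat shock chaperones of the cytosol and mitochondria were examined as a family of 10 named genes in A549 cells, an established human cell line derived from lung adenocarcinoma. The members were every array probe whose single annotated symbol was HSPA1A, HSPA1B, HSPA8, DNAJB1, HSPH1, BAG3, HSP90AA1, HSPB1, HSPD1 or HSPE1. This gave 15 probes of 9 genes among 18255 named genes. HSPD1 was not analysed here, since no probe carried its symbol alone. Of the 9 genes, 4 had a single probe, 4 had 2 and HSPE1 had 3.

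The 4 groups had 1 array each, hybridised with Cy5-labelled total RNA collected at 48 h. They were cells given a control siRNA (siCtrl), cells given an siRNA against PML (siPML), cells with a control vector (vector) and cells overexpressing WDR4 (WDR4). The promoter driving WDR4 and any pooling of cultures are not stated in the labels. Knockdown was compared with siCtrl, and overexpression with vector. There was no replicate in any group, so no difference was tested, and higher or lower below describes 2 arrays and not the treatments. In bulk RNA, fewer cells expressing a gene and less RNA per cell cannot be told apart.

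Cytosolic Hsp70 proteins bind unfolded polypeptides in cycles of ATP hydrolysis, which J-domain proteins such as DNAJB1 start and nucleotide exchange factors such as HSPH1 and BAG3 end. Hsp90 completes the folding of kinases and receptors, small heat shock proteins such as HSPB1 hold unfolded proteins without ATP, and HSPD1 with its lid HSPE1 forms the folding chamber of the mitochondrial matrix. Many of these genes are induced by heat shock factor HSF1, which binds as a trimer to inverted repeats of the unit GAA, called heat shock elements. HSPA1A and HSPA1B are near-identical neighbours in the major histocompatibility region, and their probes can share signal.

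Members with such elements did not read alike across the arrays, and neither did members without a match to their letters. Whether promoter letters relate to the array values was not tested. The promoters are those of measured members with a match, apart from HSPB1. They come from RefSeq (GRCh38.p14), and all 10 symbols matched at least 1 of 14 windows. Each line is the gene's own strand, 5′ to 3′, and ends at the base before the annotated start. Capitals mark letters within a match to 2 inverted units, which is GAA, any 2 bases and TTC, or TTC, any 2 bases and GAA. Each of these forms is its own reverse complement, so both strands were covered. A 3-unit match adds another inverted unit after any 2 bases and so contains matches to 2 units. The stretches are chr6:31815422-31815542 (plus strand) for HSPA1A, chr6:31827618-31827737 (plus) for HSPA1B, chr11:123062137-123062381 (minus) for HSPA8, chr14:102087045-102087159 (minus) for HSP90AA1 and chr19:14518398-14518512 (minus) for DNAJB1.
HSPA1A: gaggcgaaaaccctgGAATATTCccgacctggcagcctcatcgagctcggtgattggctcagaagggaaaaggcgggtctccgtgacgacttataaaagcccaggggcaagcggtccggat
HSPA1B: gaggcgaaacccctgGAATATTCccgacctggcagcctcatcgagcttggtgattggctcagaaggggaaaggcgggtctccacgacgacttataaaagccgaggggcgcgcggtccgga
HSPA8: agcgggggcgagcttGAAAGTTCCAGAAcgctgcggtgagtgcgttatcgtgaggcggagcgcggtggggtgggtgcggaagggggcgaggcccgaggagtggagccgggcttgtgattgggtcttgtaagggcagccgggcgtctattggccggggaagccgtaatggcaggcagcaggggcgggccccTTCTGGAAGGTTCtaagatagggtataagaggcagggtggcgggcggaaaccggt
HSP90AA1: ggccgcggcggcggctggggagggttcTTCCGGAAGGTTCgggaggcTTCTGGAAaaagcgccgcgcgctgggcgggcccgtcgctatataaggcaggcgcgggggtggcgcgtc
DNAJB1: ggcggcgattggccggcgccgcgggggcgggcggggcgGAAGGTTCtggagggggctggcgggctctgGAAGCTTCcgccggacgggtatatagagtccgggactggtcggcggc

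In the 250 bases before the start, 6 of the 12 windows of the measured genes held a match to 2 inverted units, against 11.6% of 35116 promoter windows of that length. They belonged to 6 of the 9 measured genes, namely HSPA1A, HSPA1B, HSPA8, HSP90AA1, DNAJB1 and HSPB1. Contiguous matches of 3 units were found for HSPA8 and HSP90AA1, and for HSPD1, against 0.441% of all windows. The windows of BAG3, HSPH1 and HSPE1 held no match to these letters. HSPD1 and HSPE1 start on opposite strands of the same region, with the HSPD1 window at chr2:197499841-197500090 and the HSPE1 window ending at chr2:197500378. The 3-unit letters of HSPD1 lie further than 250 bases before the HSPE1 start, so they were not counted for HSPE1. The HSPA1A and HSPA1B windows were identical at 235 of 251 aligned positions, or 93.6%, and each held 1 match, from 106 to 99 bases before the start in HSPA1A and from 105 to 98 in HSPA1B. HSPA8 held a 3-unit match at 55 to 43 bases and another at 230 to 218 bases before its start. These matches are descriptions of the letters and not of bound sites.

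The arrays were examined before the members. Median probe intensities lay between 106 and 134 on the 4 arrays. The brightest PML probe read 506 on siPML and 853 on siCtrl, and 3840 on vector and 5015 on WDR4. Over all PML probes the log2 difference ran from -1.44 to -0.28 for siPML against siCtrl, and from -0.14 to 0.38 for WDR4 against vector. Of the 2 WDR4 probes, the brighter read 4708 on WDR4 and 1140 on vector, and the dimmer 890 and 1191, which is lower on the array of the overexpressing cells. Of 8 measured marker genes of the A549 line, 7 passed the filter on dim genes described below, and KRT8 did not, at 42.4 to 71.3. The leukocyte markers PTPRC and CD3E read 4.54 to 18.3, none of the 4 endothelial markers passed the filter, and of the 4 fibroblast markers COL1A1 alone did. The summed A549 list read 267502 on siCtrl and 233083 on siPML, and 188489 on vector and 184004 on WDR4. ALDH1A1 was at the scanner's limit on all 4 arrays, AKR1B10 on siCtrl and AKR1C1 on siPML. AKR1B10, AKR1C1 and ALDH3A1 read higher on siCtrl and siPML than on vector and WDR4, and KRT19 and CDH1 lower. CDH1 read 5311 on siCtrl and 1374 on siPML. The endothelial sums ran from 246 to 359 and the fibroblast sums from 422 to 621. The summed leukocyte list also differed between the kinds of array, at 979 to 1229 on siPML and siCtrl and 3659 to 4391 on vector and WDR4. CD68, a lysosomal protein used as a macrophage marker, carried this, at 403 to 623 against 3248 to 3828. AIF1, the other leukocyte marker that passed the filter, read 589 on siCtrl and 551 on siPML, and 396 on vector and 538 on WDR4. It was thus lower on vector than on siCtrl, unlike CD68. The part of CD68 in the differences between vector and siCtrl below was not tested.

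Deposited intensities below 600 could be resolved into 2 whole-number readings each, which gave a technical standard error of a log2 difference of 0.11 for siPML against siCtrl, 0.080 for WDR4 against vector and 0.094 for vector against siCtrl. It was measured at 300 to 600 units and assumed for brighter probes. It leaves out all variation between cultures and between probes of 1 gene. The source of the 2 readings is not known, so it may also leave out variation of labelling and hybridisation. The median gap between probes of 1 gene was 0.28 in siPML against siCtrl and 0.22 in WDR4 against vector. In the same order, 2 technical standard errors were 0.22 and 0.16. Differences are of log2(intensity + 1), and intensities of different probes were not set against each other.

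The stress-inducible Hsp70 genes stood out from the other members. HSPA1A, the main heat-inducible Hsp70, read 16495 on siCtrl and 7636 on siPML, and 25132 on vector and 10782 on WDR4. It was thus lower on each manipulated array than on its own control, and highest on vector. The log2 difference was -1.11 (2.16-fold lower) for siPML against siCtrl and -1.22 (2.33-fold lower) for WDR4 against vector. HSPA1B read 2219, 1259, 3348 and 1946 in the same order of arrays. Its differences of -0.82 (1.76-fold lower) and -0.78 (1.72-fold lower) had the same direction as those of HSPA1A. The order of the 4 arrays was the same for both probes, vector above siCtrl above WDR4 above siPML, and the neighbours siCtrl and WDR4 of HSPA1B differed by less than 2 technical standard errors.

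By its brightest probe, HSPA1A was the sole member at least 2-fold different in either comparison. In siPML against siCtrl, 4.27% of 9128 kept genes were at least 2-fold lower, so 1 of 9 members was near the background share, and 2.3% were at least 2-fold higher, with no member among them. In WDR4 against vector the shares were 0.285% lower and 0.362% higher, again with HSPA1A as the single member on the lower side. At 1.5-fold, HSPA1A and HSPA1B were lower in both comparisons, against 12.9% and 3.34% of kept genes in the same order, and no member was higher, against 10.1% and 3.09%. The 2-fold call of HSPA1A depended on scaling and control. Its difference was -0.99 for siPML against siCtrl after quantile normalization, and -0.61 for WDR4 against the siCtrl array. The comparisons share no array, and 35 of 9128 kept genes, or 0.383%, were at least 1.5-fold lower in both, HSPA1A and HSPA1B among them. At 2-fold, 3 kept genes (0.0329%) were lower in both, HSPA1A being 1 of them.

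**Figure D1:**
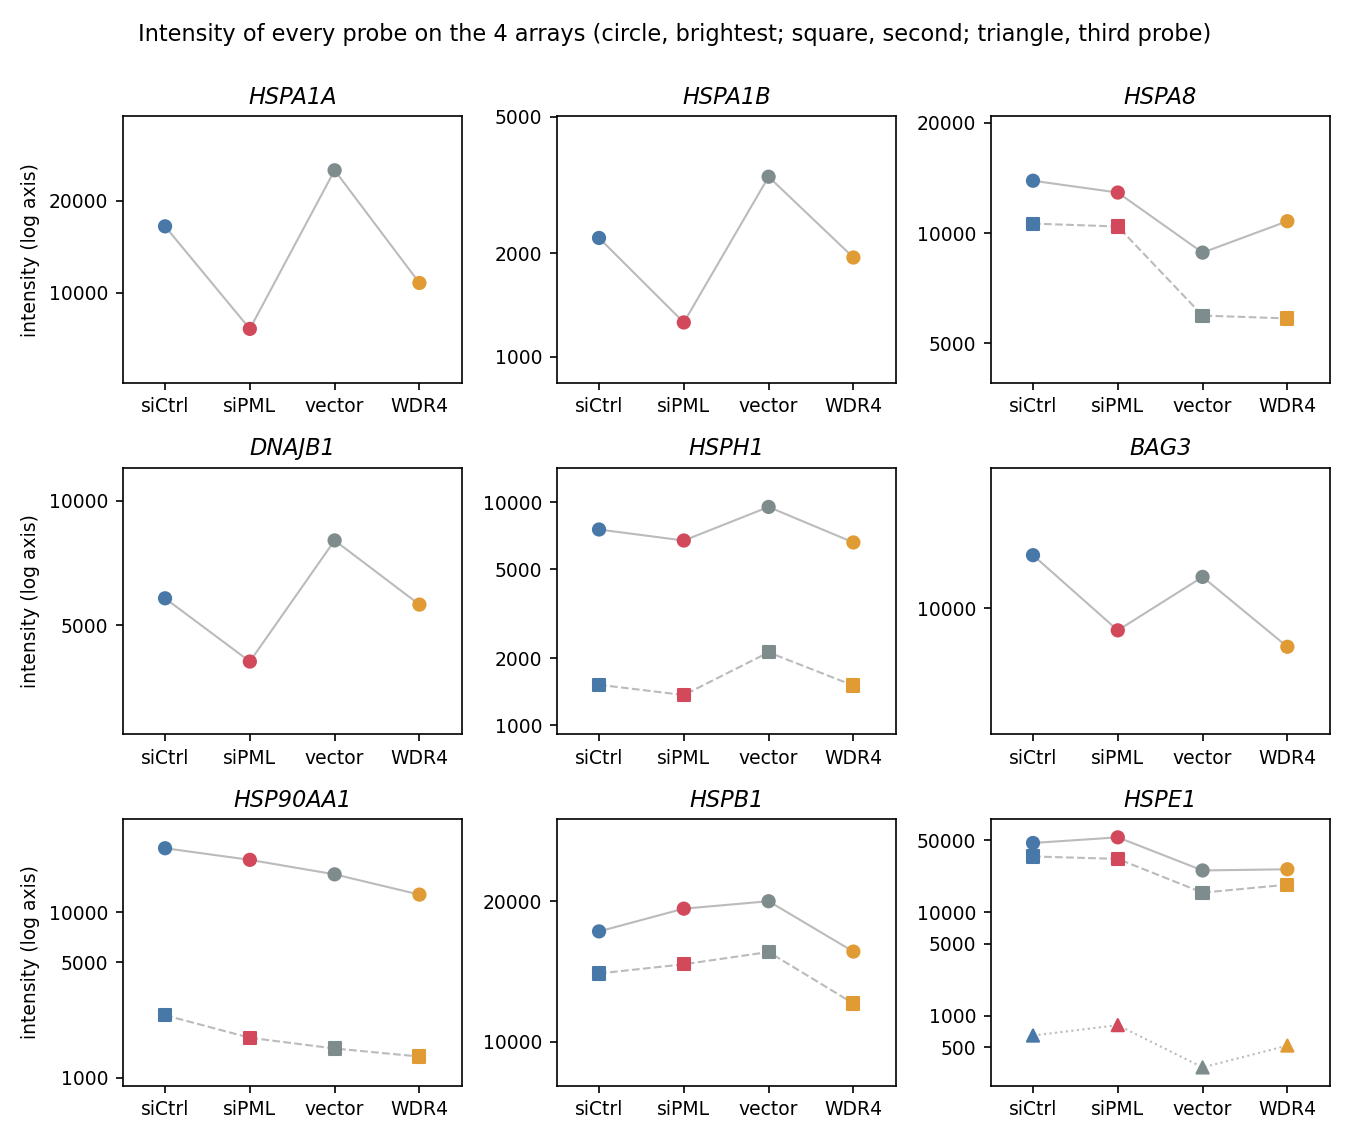
Deposited intensity (vertical log axis, a scale per panel) of every probe of the 9 measured genes on the siCtrl, siPML, vector and WDR4 arrays, 1 point per array and probe, with lines joining points of 1 probe. HSPA1A, HSPA1B, DNAJB1 and the dimmer HSPH1 probe read highest on vector and lowest on siPML. HSPA8, HSP90AA1 and HSPE1 read higher on siCtrl and siPML than on vector and WDR4.

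HSPA8, the constitutive Hsp70 of the cytosol, did not follow the inducible copies. Its brighter probe read 13900 on siCtrl and 12905 on siPML, and 8843 on vector and 10776 on WDR4. Both arrays with siRNA were above both plasmid arrays. The difference of siPML from siCtrl was -0.11, within 2 technical standard errors. The difference of WDR4 from vector was 0.29 for this probe and -0.026 for the dimmer one, which read 5951 on vector and 5845 on WDR4. The dimmer probe read 10614 on siCtrl and 10424 on siPML, so the higher level with siRNA was present on both probes.

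DNAJB1, the J-domain partner that delivers substrates to Hsp70, had the same order of arrays as HSPA1A, with smaller differences from the own controls. It read 5811 on siCtrl and 4084 on siPML, and 8024 on vector and 5610 on WDR4. The log2 differences were -0.51 (1.42-fold lower) for siPML against siCtrl and -0.52 (1.43-fold lower) for WDR4 against vector. The vector array was highest and the siPML array lowest, while siCtrl and WDR4 differed by less than 2 technical standard errors, unlike for HSPA1A.

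The exchange factors differed from each other on the siPML array. BAG3, a co-chaperone that links Hsp70 to selective autophagy, read 12776 on siCtrl and 9017 on siPML, and 11552 on vector and 8356 on WDR4. Both controls lay above both manipulated arrays, and the controls differed from each other by -0.15, within 2 technical standard errors. BAG3 was lower by log2 differences of -0.50 on siPML and -0.47 on WDR4. HSPH1, the Hsp110 exchange factor, read 7553, 6740, 9535 and 6607 in the same order. It differed by -0.16 for siPML against siCtrl, within 2 technical standard errors, and by -0.53 for WDR4 against vector. The second HSPH1 probe gave -0.15 and -0.49, so the HSPH1 probes agreed within 0.036 in these comparisons. The second probe read lowest on siPML, at 1366, and the brighter one on WDR4. On both probes siPML and WDR4 differed by less than 2 technical standard errors.

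HSP90AA1, the inducible cytosolic Hsp90, read 24397 on siCtrl and 20756 on siPML, and 16962 on vector and 12795 on WDR4 with its brighter probe. The order siCtrl above siPML above vector above WDR4 held on both probes, and every neighbouring pair differed by more than 2 technical standard errors. The narrowest were siPML against siCtrl on the brighter probe, at -2.10 technical standard errors, and WDR4 against vector on the dimmer, at -2.01. Under other processing the former difference was as small as -0.19, within 2 technical standard errors, or 0.22. The differences were -0.23 and -0.45 on the brighter and dimmer probes for siPML against siCtrl, and -0.41 and -0.16 for WDR4 against vector. The probes therefore shared a direction and disagreed on which comparison was the larger.

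HSPB1, the small heat shock protein Hsp27, read lowest on WDR4, though on its brighter probe WDR4 and siCtrl differed by less than 2 technical standard errors. Its brighter probe read 17240 on siCtrl and 19288 on siPML, and 20009 on vector and 15605 on WDR4. The differences of WDR4 from vector were -0.36 and -0.37 on the brighter and dimmer probes. Those of siPML from siCtrl were 0.16 and 0.065, both within 2 technical standard errors.

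HSPE1, the co-chaperonin of the mitochondrial matrix, separated siRNA from plasmid arrays on all 3 probes. The brightest read 46817 on siCtrl and 53063 on siPML, and 25419 on vector and 26088 on WDR4. The other probes read 34672, 32872, 15513 and 18531, and 647, 816, 319 and 518, in the same order. On each probe both siRNA arrays were above both plasmid arrays. The differences from the own control spread between probes, from -0.077 to 0.33 for siPML against siCtrl and from 0.038 to 0.70 for WDR4 against vector. The value of the brightest probe in WDR4 against vector turned to -0.041 when arrays were centred on their medians. Over 1745 genes with several kept probes, the median gap between probes was 0.28 in siPML against siCtrl and 0.22 in WDR4 against vector. The HSPE1 gaps of 0.41 and 0.66, taken over 3 probes, exceeded these medians. The upper deciles of the gaps were 0.82 and 0.59, so only the second HSPE1 gap exceeded its upper decile. The brightest probe reached 81.6% of an intensity of 65000, the level taken as the scanner's limit, and no member probe reached that limit.

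**Figure D2:**
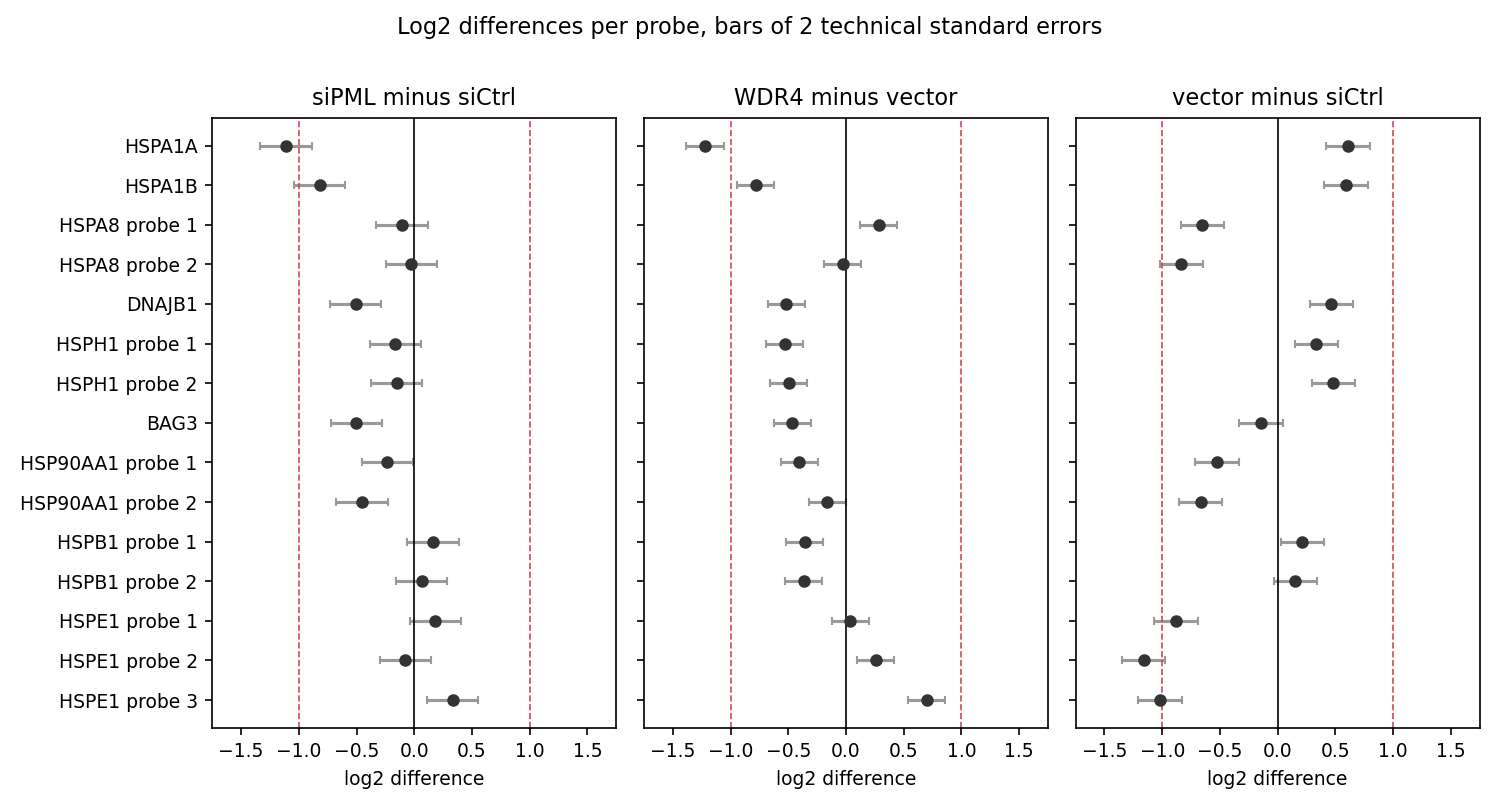
Log2 difference (horizontal axis) of each of the 15 probes for siPML minus siCtrl, WDR4 minus vector and vector minus siCtrl, with bars of 2 technical standard errors either side and dashed lines at 2-fold. HSPA1A is the only gene past the lower dashed line in the first and second panels, and HSPE1 probes lie at -0.88 to -1.16 in the third.

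Taking each gene by its brightest probe, 7 of the 9 members were below 0 in siPML against siCtrl, where 48.9% of 9128 kept genes were, and 7 of 9 were below 0 in WDR4 against vector, where 56.3% were. The kept genes were those whose mean log2 value over the arrays reached the median of all named genes, an intensity of 223, and all 9 measured members passed. In the knockdown comparison the members above 0 were HSPB1 and HSPE1, and the median of the 9 was -0.23 against 0.0085 for all kept genes. In WDR4 against vector the members above 0 were HSPA8 and HSPE1, and the median was -0.47 against -0.043. Among the 3055 kept genes at least as bright on average as the dimmest member, the medians were -0.040 and -0.073, and 53.7% and 62.5% were below 0. Below 0 in both comparisons were 6 of 9 members, against 29.1% of kept genes, namely HSPA1A, HSPA1B, DNAJB1, HSPH1, HSP90AA1 and BAG3. Centring each array on its median shifted the median of all kept genes by -0.10 in siPML against siCtrl and by -0.079 in WDR4 against vector, and turned no member other than HSPE1 in these comparisons.

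**Figure D3:**
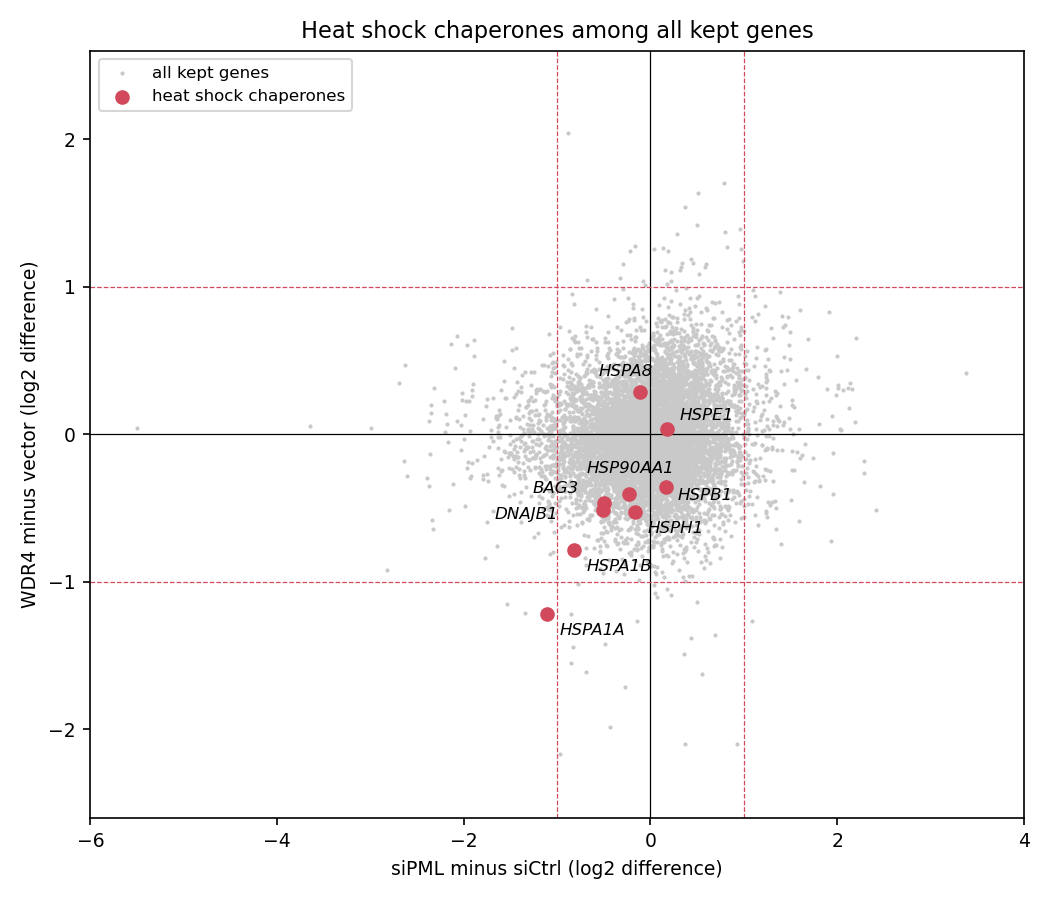
Log2 difference of siPML minus siCtrl (horizontal) against WDR4 minus vector (vertical) for 9128 kept genes (grey) and the 9 measured chaperones (red), each by its brightest probe, with dashed lines at 2-fold. HSPA1A lies beyond both lower lines at -1.11 and -1.22, HSPA1B at -0.82 and -0.78, and HSPA8 and HSPE1 lie at or above 0 on the vertical axis.

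The vector and siCtrl arrays, both controls, differed for most members. They differ in kind of transfection and in culture, which cannot be told apart. HSPA1A was 1.52-fold, HSPA1B 1.51-fold and DNAJB1 1.38-fold higher on vector. HSPE1 was 1.84-fold, HSPA8 1.57-fold and HSP90AA1 1.44-fold lower on vector. The log2 differences of the members ran from -0.88 for HSPE1 to 0.61 for HSPA1A. The lower and upper quartiles of all kept genes were -0.27 and 0.53. No member was 2-fold different by its brightest probe, against 9.43% of kept genes higher and 3.14% lower. The other HSPE1 probes were past 2-fold lower on vector, at -1.16 and -1.02. By brightest probe, 2 members were 1.5-fold higher and 2 lower, against 22.3% and 10.6%. Of the 9 members, 4 were below 0, near the 42.8% of kept genes. The sign of HSPB1 depended on scaling, at 0.21 as deposited and -0.036 after centring, a step that shifted the median of all kept genes by -0.25. Since WDR4 minus vector and vector minus siCtrl share the vector array, their values for HSPA1A are given side by side as -1.22 and 0.61. Set against siCtrl instead of vector, the WDR4 array differed by -0.61 for HSPA1A and for BAG3, by -0.19 for HSPA1B and for HSPH1, and by -0.051 for DNAJB1. HSP90AA1 differed by -0.93 and HSPB1 by -0.14. HSPA8 and HSPE1, above 0 against vector, were below 0 against siCtrl, at -0.37 and -0.84. By their brightest probes, HSPA1B, HSPH1, DNAJB1 and HSPB1 were lower on WDR4 than on vector by more than 2 technical standard errors. Against siCtrl their differences lay within 2 technical standard errors, which was 0.20 for that pair of arrays.

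Other genes of the chaperone network came from lists compiled with earlier results of these data known. The list of further Hsp70 proteins and partners of Hsp70 held 15 kept genes of 20. In siPML against siCtrl 9 of them were below 0, with a median of -0.12, and 1 was at least 2-fold lower, close to the 48.9% and 4.27% of all kept genes. This was STUB1, the ubiquitin ligase CHIP that tags Hsp70 clients, at 651 against 1756 (-1.43). DNAJB2 differed by -0.87 and HSPA13 by 0.81. In WDR4 against vector 11 of 15 were below 0, against 56.3% of kept genes and 62.5% of the bright ones, with a median of -0.23. None was 2-fold different, against 0.285% of kept genes lower and 0.362% higher. DNAJB4 differed by -0.77, DNAJB2 by -0.43 and BAG5 by -0.42.

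Hsp90 and its co-chaperones held 11 kept genes of 12. In the knockdown comparison 5 were below 0, near the 48.9% of kept genes, and the median of 0.050 took either sign under other processing, from -0.060 to 0.087. FKBP5, an immunophilin induced by glucocorticoids, read 264 against 747 (-1.50, with a second probe at -0.63), and SUGT1 was higher by 0.96 and UNC45A by 0.44. In WDR4 against vector 10 of 11 were below 0, against 56.3% of kept genes, with a median of -0.16 against -0.043 for all kept genes. CHORDC1 differed by -0.69, FKBP4 by -0.48 and SUGT1 by -0.46, though the second probes of CHORDC1 and FKBP4 gave -0.26 and 0.16. None reached 2-fold.

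The 14 genes of the cytosolic chaperonin and prefoldin, which fold actin and tubulin, had medians of 0.078 and -0.043 in the same comparison order. Both medians changed sign under some processing. None of the genes was 2-fold different. Of all kept genes, 4.27% were lower and 2.3% higher in siPML against siCtrl, and 0.285% and 0.362% in WDR4 against vector. CCT3 differed by -0.72 and CCT7 by -0.51 for siPML against siCtrl, the other CCT7 probes at -0.79 and -0.00, and PFDN2 was higher by 0.43. For WDR4 against vector CCT4 read higher by 0.30 (second probe -0.13) and CCT5 by 0.29, and CCT2 differed by -0.19 (second probe -0.41). Mitochondrial chaperones and proteases, 13 kept genes of 15, had medians of -0.084 and -0.014, and the latter took either sign under other processing. The protease subunit CLPP read 908 on siPML and 2184 on siCtrl (-1.26), SPG7 was higher by 0.60 with a second probe at -1.80, and DNAJA3 differed by -0.48. In WDR4 against vector the exchange factors GRPEL2 and GRPEL1 differed by -0.64 and -0.36, and the protease YME1L1 by -0.25. HSPB8 was the single kept gene of 7 further small heat shock proteins, at -0.12 and -0.46.

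Transcripts of the heat shock factors themselves did not share a direction. HSF1 read 1200 on siCtrl and 1257 on siPML, and 1970 on vector and 1873 on WDR4. The differences of 0.068 and -0.073 lay within 2 technical standard errors and changed sign under some processing, and both plasmid arrays read higher. HSF2 differed by -0.29 and 0.034 with a second probe at 0.98 and -0.92, so its probes disagreed. HSBP1, a small protein that binds the HSF1 trimer, read 3193 on siPML against 6486 on siCtrl (-1.02) and differed by 0.42 for WDR4 against vector.

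Chaperones of the endoplasmic reticulum are induced by the unfolded protein response. In WDR4 against vector all 13 kept genes were below 0, with a median of -0.996, and 6 were at least 2-fold lower, against 56.3% and 0.285% of kept genes. DNAJB9 differed by -2.10 and HSPA5, the Hsp70 of the endoplasmic reticulum, by -1.71. HERPUD1 read at the scanner's limit on the vector array, and its -1.99 is therefore the least size of the difference. Of the same 13, 6 were below 0 with siPML, near the 48.9% of kept genes, with a median of 0.19, while CANX differed by -1.01, SDF2L1 by -0.85 and PDIA6 by 0.77. On vector 1 of 13 was below siCtrl, against 42.8% of kept genes, and 7 were at least 2-fold higher, against 9.43%, with a median of 1.01, and against siCtrl the WDR4 array had a median of -0.024. The difference between this list and the heat shock chaperones was not tested.

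**Figure D4:**
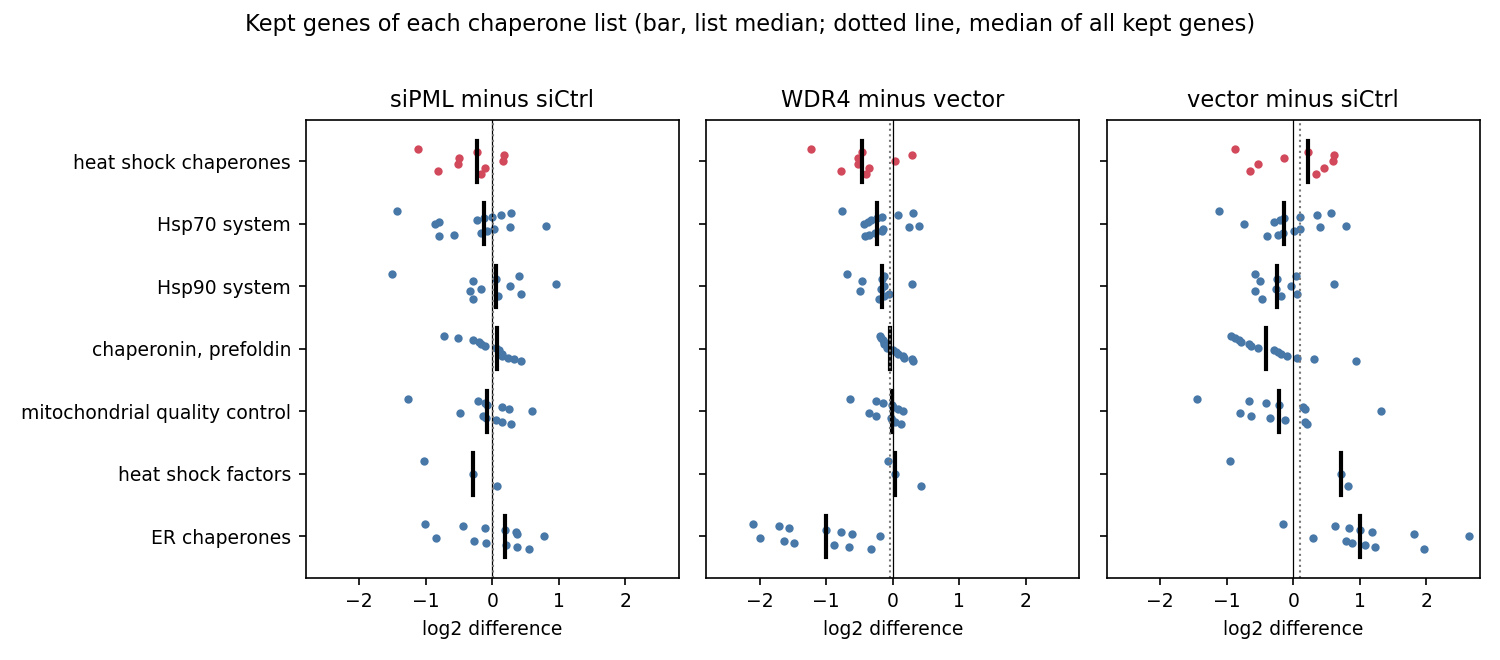
Log2 differences (horizontal axis) of the kept genes of each chaperone list, 1 point per gene, with a black bar at the list's median and a dotted line at the median of all kept genes, for siPML minus siCtrl, WDR4 minus vector and vector minus siCtrl. The endoplasmic reticulum list has medians of 0.19, -0.996 and 1.01, and the heat shock chaperones -0.23, -0.47 and 0.21.

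The genes whose profile over the 4 arrays was most like that of HSPA1A, among 9062 others off the scanner's limit, were SLC33A1, SDF2L1 and HSPA1B. Likeness was the root mean square difference of log2 values after each gene's mean was subtracted, and it was 0.16, 0.17 and 0.19. SLC33A1, an acetyl-CoA transporter of the endoplasmic reticulum, read 1509 on siCtrl and 714 on siPML, and 1835 on vector and 1044 on WDR4. SDF2L1, a component of an endoplasmic chaperone complex, read 15344, 8539, 32287 and 11003. Both were lower on siPML and on WDR4 than on their own controls, which follows from their being picked for likeness to HSPA1A. DNAJB1 ranked 79 and HSPE1 8476 in likeness to HSPA1A. For HSPA8 the closest were DBF4B, USP5 and CCDC8, with root mean square differences of 0.016, 0.018 and 0.023, and they read 204 to 355.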

How the data were processed

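Total RNA of the 4 samples was amplified and labelled with Cy5, per the labels' protocols. The authors deposited a linear intensity for every probe. The labels state no scanner, background correction or normalization; 23 to 42 values per array were below 0. Samples were grouped by their titles and source names.

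Probes were named through the platform annotation of the deposited table. The array's 31741 probes comprised 24658 with a single symbol, 1002 with several and 6081 without; 2177 symbols were updated through RefSeq and 77 stayed unmatched. Negative values became 0, and log2(intensity + 1) was used. A gene was represented by its brightest probe on average. The filter at the median log2 value of 7.81 kept 9128 of 18255 genes. No test was run, for lack of replicates. Between 10 and 600 units, 97.2% to 98.9% of values were sums of 2 scaled whole-number readings, against at most 0.039% after a shift of 0.0137; whether these are spots, scans or arrays is not known, so they counted as 1 replicate. The standard deviation of their log2 ratio (0.10 to 0.16 at 300 to 600 units) gave the technical standard error.

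All 9 measured members were named, with every probe, and up to 3 genes of each further list by absolute difference in each main comparison, and 3 genes most like HSPA1A and HSPA8. Additional probes, the CD68 and AIF1 values and the likeness ranks of members were given after values were seen. The members, lists and comparisons were chosen with earlier results of these data known. Alternatives were quantile normalization, centring, no or a stricter filter, the mean over probes, 16 added before log2, the other or both control arrays and a 1.5-fold threshold. Removal of a running median over 501 genes and leaving out HSPA1B were chosen after seeing the data. The recovery of paired readings and of 2-fold changed genes was tested on simulated data. Python 3.11.15, numpy 2.4.6, pandas 2.3.3, matplotlib 3.10.9 and Biopython 1.88 were used.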

Additional observations from a re-analysis of the deposited data

How the results depend on the processing

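No paired analysis was possible because each group holds 1 array and the groups share a single replicate number. The median of the members stayed below 0 in siPML against siCtrl, from -0.34 to -0.19, and in WDR4 against vector, from -0.55 to -0.40, under 8 alternatives with the planned control array. With the other control array it was -0.36 and -0.37. The median of vector against siCtrl, 0.21, was 0.36 after quantile normalization, -0.036 after centring, 0.42 without the trend along the level and 0.035 without HSPA1B. The count of members 2-fold lower in siPML against siCtrl, 1, became 0 after quantile normalization and 2 with the other control array, with the mean of both controls or at 1.5-fold, and 1 member was 2-fold higher against the other control. For WDR4 against vector, where 1 was lower, it became 0 with the other control array and with the mean of both controls, and 2 at 1.5-fold. For vector against siCtrl, where none was 2-fold different, 1 was lower after centring and 1 with the mean over probes, and at 1.5-fold 2 were higher and 2 lower. In at least 1 comparison, the medians of the Hsp70, Hsp90, chaperonin, mitochondrial, heat shock factor and endoplasmic reticulum lists moved beyond the technical standard error or turned with the control array, and also with scaling, filter, trend or probe choice. That of the endoplasmic reticulum in siPML was 0.046 above the upper quartile of level and -0.85 against vector. Of list genes, DNAJB9 and HSPA5 in WDR4 against vector turned to 0.53 and 0.097 against siCtrl. Of 722 values of genes and lists under alternatives, 527 stayed within the technical standard error of a difference, 193 moved by more or turned without having been 2-fold and these 2 turned after being 2-fold. A gene that fails the stricter filter has no value there. The counts of all kept genes at least 2-fold higher and lower were 210 and 390 in siPML against siCtrl and became 734 and 578 without the filter, and 68 and 198 with the stricter one; in WDR4 against vector 33 and 26 became 404 and 81, and 11 and 14. In vector against siCtrl 861 and 287 became 587 and 412 after quantile normalization, 519 and 602 after centring, 1694 and 536 without the filter and 324 and 165 with the stricter one. After centring, 162 and 499 were counted in siPML against siCtrl and 27 and 38 in WDR4 against vector. The causes were not tested. Precision is limited by having 4 arrays, and variation between cultures was not measured.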
